A study of Mus musculus with 6 samples.

Results

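The subject is a set of 9 mouse genes of the NLRP family, Nlrp4a, Nlrp4b, Nlrp4c, Nlrp4d, Nlrp4e, Nlrp9a, Nlrp9b, Nlrp9c and Nlrp14. They were taken by symbol, and all 9 are among the 55291 gene symbols of the deposited table. Messenger RNA was profiled by Smart-seq2, which primes on poly(A) tails and amplifies the whole cDNA, in pools of 10 fully grown oocytes per library. The Nat10 cKO group, with 3 libraries, came from females carrying a conditional Nat10 knockout driven by Gdf9-cre, a recombinase active in oocytes. The WT group, with 3 libraries, came from females labelled WT, and the sources used here do not say whether these carried floxed Nat10 or Cre. Both groups received PMSG, a hormone that stimulates follicle growth, and collection followed after 32 to 48 h in one label and after 36 to 48 h in another. The age of the mice, the number of females behind a pool and whether libraries of a group came from separate females are not given, so p-values measure the spread between these libraries.

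NAT10 acetylates cytidine in RNA. NLRP proteins carry a pyrin domain, a NACHT nucleotide-binding domain and leucine-rich repeats, and the best known members assemble inflammasomes in immune cells. A second branch of the family is made by the oocyte, and in rodents its Nlrp4 and Nlrp9 genes have multiplied into neighbouring copies. NLRP14 is a maternal protein that early mouse embryos need, and NLRP9B is also known in the mouse gut, where it senses viral RNA together with the helicase DHX9. The human counterpart NLRP4 is known to dampen interferon signalling through the kinase TBK1. All 9 genes lie on chromosome 7 of GRCm38, the assembly also called mm10, per GENCODE M21. Nlrp4c spans 6045161 to 6105150, Nlrp4d 10358873 to 10388935 and Nlrp4b 10687789 to 10730168. Nlrp9b spans 19991465 to 20073306 and Nlrp4e 23301192 to 23362277. Nlrp9c (26322473 to 26403700), Nlrp4a (26435113 to 26476142) and Nlrp9a (26535023 to 26575615) stand side by side, and Nlrp14 lies far from them at 107166990 to 107198102. Nlrp4d is annotated as a pseudogene and the other 8 as protein coding.

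The start regions of several copies are themselves near copies. They are shown because the read ratio of Nlrp9a to Nlrp9c, the pair closest in this region, did not overlap between the genotypes. The same held for 56.8% of all pairs of tested genes with at least 10 CPM, so it does not set this pair apart. It also held for Nlrp9b to Nlrp9c, whose windows aligned over only 20 bases. RefSeq windows of 300 bases, 250 before to 50 after an annotated start on GRCm38.p6, were at hand for 7 of the 9 genes. The local alignment of the Nlrp9a window (chr7:26534773-26535072, plus strand) and the Nlrp9c window (chr7:26403651-26403950, minus strand) covered 252 bases at 96.8% identity and held 1 unbroken identical run of 106 bases. Capitals mark CCAAT, the CCAAT box, on either strand.
Nlrp9a: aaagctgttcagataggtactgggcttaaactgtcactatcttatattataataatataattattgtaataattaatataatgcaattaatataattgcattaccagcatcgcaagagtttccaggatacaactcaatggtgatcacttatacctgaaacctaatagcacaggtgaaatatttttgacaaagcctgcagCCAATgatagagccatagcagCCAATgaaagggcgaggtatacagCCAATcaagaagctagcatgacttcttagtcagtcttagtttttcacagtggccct
Nlrp9c: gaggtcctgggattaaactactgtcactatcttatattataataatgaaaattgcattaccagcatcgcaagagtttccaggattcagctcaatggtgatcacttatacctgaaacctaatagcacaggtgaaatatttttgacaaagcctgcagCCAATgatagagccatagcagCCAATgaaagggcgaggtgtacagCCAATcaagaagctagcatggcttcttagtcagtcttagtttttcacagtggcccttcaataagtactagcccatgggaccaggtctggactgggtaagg
Both windows hold 3 CCAAT matches, and of all 32851 RefSeq windows 3.37% hold at least 3. The Nlrp9a window also holds 4 matches of TAATTA or TAATTG, the letters of the homeobox factor NOBOX, and the Nlrp9c window holds 0. At least 1 such match stands in 12.4% of all windows and at least 3 in 0.28%.

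Windows of Nlrp4a (chr7:26435364-26435663, the second of its annotated starts), Nlrp4b (chr7:10687543-10687842) and Nlrp4c (chr7:6044911-6045210), all on the plus strand, aligned to each other over 258 to 275 bases at 78.3% to 80.4% identity. Capitals again mark CCAAT on either strand.
Nlrp4a: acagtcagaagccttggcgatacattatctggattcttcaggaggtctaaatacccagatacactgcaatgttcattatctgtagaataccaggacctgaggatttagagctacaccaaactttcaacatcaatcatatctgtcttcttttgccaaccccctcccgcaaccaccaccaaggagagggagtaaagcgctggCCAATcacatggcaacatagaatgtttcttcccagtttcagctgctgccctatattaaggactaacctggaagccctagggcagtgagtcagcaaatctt
Nlrp4b: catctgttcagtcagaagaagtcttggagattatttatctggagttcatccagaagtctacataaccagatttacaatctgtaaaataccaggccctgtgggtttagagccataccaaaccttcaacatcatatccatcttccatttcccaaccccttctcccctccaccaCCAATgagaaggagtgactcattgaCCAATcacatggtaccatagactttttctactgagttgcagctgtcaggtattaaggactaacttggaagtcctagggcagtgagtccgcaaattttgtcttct
Nlrp4c: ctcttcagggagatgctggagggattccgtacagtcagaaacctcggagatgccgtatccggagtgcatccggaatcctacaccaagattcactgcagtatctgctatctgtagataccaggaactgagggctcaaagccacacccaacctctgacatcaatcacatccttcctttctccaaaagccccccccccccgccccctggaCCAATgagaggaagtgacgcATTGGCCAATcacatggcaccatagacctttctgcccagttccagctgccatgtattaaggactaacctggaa
The longest run identical in these 3 windows is TATTAAGGACTAAC, which no other gene's window holds on either strand. CCAAT matches number 1, 2 and 3 in the Nlrp4a, Nlrp4b and Nlrp4c windows, and 37.4% of all windows hold at least 1. The window at the first annotated start of Nlrp4a (chr7:26434863-26435162) holds 0 and aligned to the Nlrp4b and Nlrp4c windows over only 13 to 14 bases. The Nlrp4e window holds 1 CCAAT match and the Nlrp9b window 0, and neither aligned to a window of another member over more than 37 bases. The motifs were chosen after the windows had been read, so their counts describe the windows.

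For Nlrp9a and Nlrp9c, coding identity over a global alignment was 87.4%, below the 96.8% over the locally aligned part of their start windows. This order was not general, since the windows of Nlrp4c and Nlrp4e, the pair closest in coding sequence, aligned over only 37 bases. Nlrp4c and Nlrp4e shared 93.9% of aligned coding bases, Nlrp4a shared 86.3% with Nlrp4c and 85.9% with Nlrp4e, and Nlrp4b 78.0% to 79.0% with the other Nlrp4 copies. Identity among Nlrp9a, Nlrp9b and Nlrp9c was 82.3% to 87.4%, and Nlrp14 matched each of the other 7 coding genes at 58.7% to 60.8%. Reads that match several copies can be split between them, and the sources at hand do not say how such reads were counted. No stretch of 50 bases in the annotated Nlrp14 or Nlrp4b transcripts occurs in a transcript of another gene. The share of such stretches that recur elsewhere was 36.7% for Nlrp4e, 10.7% for Nlrp4c, 7.79% for Nlrp9b, 6.07% for Nlrp9a, 2.63% for Nlrp4a and 2.61% for Nlrp9c. Values of Nlrp4e and Nlrp4c are therefore the least certain. The unnamed gene models that share most with Nlrp4e, Nlrp4c or Nlrp9b were at 0.808 CPM or below in every library. With the handling of shared reads unknown, these low values do not show how many reads the copies gained or lost. Exons of Nlrp9b overlap those of the gene model Gm18877 on the same strand, so reads there cannot be assigned to either.

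The libraries held 47409048 to 74098613 reads in the Nat10 cKO group and 33520334 to 65451269 reads in the WT group. Nat10 was 6.01 ± 0.301 CPM in Nat10 cKO libraries and 43.9 ± 5.59 CPM in WT libraries (SD, n = 3 each), a log2 change of -2.67 (limma adjusted p = 4.28e-08). The labels do not name the deleted exons, so reads from retained exons may be among these. CPM, the usual depth-scaled read count, was computed after TMM scaling, which sets libraries level on the bulk of their genes, and all changes are Nat10 cKO minus WT on log2(CPM + 1). The 9 oocyte markers, among them the zona genes Zp1 to Zp3, Gdf9 and Ddx4, were all detected, and summed to between 24544 and 29595 CPM in Nat10 cKO libraries and between 19749 and 20295 CPM in WT libraries. Of these markers 7 rose and 1, Oosp1, fell, against 2 and 0 as deposited and 2 and 1 with the deposited factors on shares of reads. The 10 granulosa markers (1 rose and 2 fell of 8 tested) summed to 382 to 426 CPM in Nat10 cKO and 406 to 459 CPM in WT libraries, mostly Serpine2. Blood and immune markers (0 rose and 1 fell of 4 tested) summed to 41.2 to 44.6 CPM in Nat10 cKO and 51.1 to 55.6 CPM in WT libraries, mostly C1qb. Markers of endothelium, theca and stroma (of 6 tested, 1 rose and 2 fell) summed to 125 to 144 CPM in Nat10 cKO and 130 to 137 CPM in WT libraries. No defining marker of these lists was at 0 in all libraries, but several were barely detected. Amh and Foxl2 (granulosa), Col1a1 and Col1a2 (stroma), and Ptprc and Lyz2 (immune) stayed at or below 0.187 CPM in every library. Others were clearly detected. Cyp19a1 (granulosa) averaged 41.1 CPM in Nat10 cKO and 52.2 CPM in WT, and Pecam1 (endothelium) 58.4 CPM in Nat10 cKO and 40.7 CPM in WT. Cnn1, listed with stroma, averaged 34.8 CPM in Nat10 cKO and 37.5 CPM in WT. The granulosa marker that rose was Inha, with 5.51 ± 3.42 CPM in Nat10 cKO and 2.00 ± 0.291 CPM in WT. The part of other cells, or of a general shift in oocyte-enriched genes, in the results on the NLRP genes was not tested.

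Nlrp14 mRNA was higher in oocytes lacking Nat10. It had 8433, 9036 and 6089 CPM in the Nat10 cKO libraries, against 4673, 4345 and 4867 CPM in the WT libraries. All 3 Nat10 cKO libraries lay above all 3 WT libraries, and the lowest of them, replicate 3, was nearer to WT than the other two were. The mean was 7853 ± 1556 CPM in Nat10 cKO and 4629 ± 264 CPM in WT (SD, n = 3 each). Nlrp14 rose by 0.74 on the log2 scale (SE 0.121, 95% interval 0.48 to 1.00, limma adjusted p = 0.000592, n = 3 per group), 1.67-fold. The gene alone took 0.792% ± 0.152 of all reads in Nat10 cKO libraries and 0.458% ± 0.0184 in WT libraries. Per kilobase of exon it held place 8 of 17930 tested genes in Nat10 cKO and place 18 in WT.

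Nlrp4c, the least abundant of the detected copies, also rose. It had 54.4, 65.2 and 41.7 CPM in Nat10 cKO libraries, against 29.7, 37.0 and 34.3 CPM in WT libraries. The groups did not overlap, with the lowest Nat10 cKO library close above the highest WT library. Its log2 change was 0.64 (SE 0.146, 95% interval 0.33 to 0.96, limma adjusted p = 0.00456), 1.56-fold. These values rest on 3015 to 4065 reads per library in Nat10 cKO and 962 to 2203 in WT, so counting error is small beside the spread of replicates.

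The other 3 detected Nlrp4 copies did not pass the threshold of 0.05. Nlrp4b had 961, 932 and 812 CPM in Nat10 cKO libraries, against 806, 678 and 786 CPM in WT libraries. Its groups did not overlap, by a narrow margin, and its log2 change of 0.25 (95% interval 0.05 to 0.46) just missed the threshold (limma adjusted p = 0.0520). Nlrp4a had 987, 939 and 921 CPM in Nat10 cKO libraries, against 1085, 923 and 1060 CPM in WT libraries, with overlapping groups and a log2 change of -0.10 (95% interval -0.29 to 0.08, limma adjusted p = 0.362). Nlrp4e, a copy linked to preimplantation development in mice, had 221, 208 and 214 CPM in Nat10 cKO libraries, against 215, 193 and 203 CPM in WT libraries. Its groups overlapped, and its log2 change was 0.07 (95% interval -0.11 to 0.25, limma adjusted p = 0.519). Nlrp4d had 0 reads in all 6 libraries, which allows up to 0.0633 CPM in the shallowest Nat10 cKO library and 0.0895 CPM in the shallowest WT library (3 reads each, counting error only).

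None of the 3 Nlrp9 copies passed. Nlrp9a had 692, 735 and 537 CPM in Nat10 cKO libraries, against 570, 456 and 557 CPM in WT libraries. Nat10 cKO replicate 3 fell inside the WT range, and the log2 change was 0.30 (95% interval 0.05 to 0.56, limma adjusted p = 0.0642). Nlrp9b, the copy also known from the gut, had 935, 1004 and 740 CPM in Nat10 cKO libraries, against 798, 712 and 785 CPM in WT libraries, again with replicate 3 inside the WT range (log2 change 0.21, 95% interval -0.02 to 0.44, limma adjusted p = 0.140). Nlrp9c had 794, 806 and 694 CPM in Nat10 cKO libraries, against 923, 770 and 916 CPM in WT libraries. Its groups overlapped through WT replicate 2, and its log2 change was -0.18 (95% interval -0.39 to 0.02, limma adjusted p = 0.151).

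**Figure D1:**
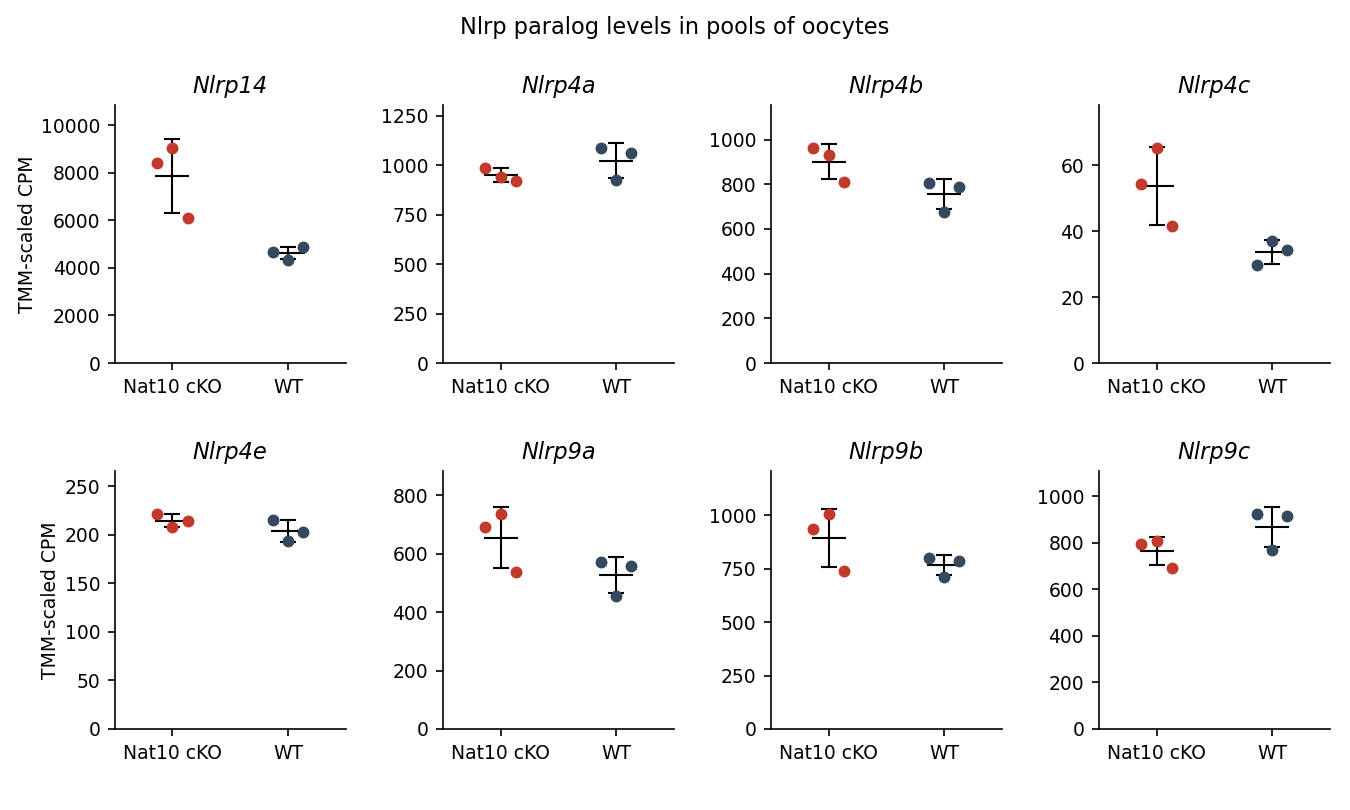
TMM-scaled CPM (y axis, from 0) of the 8 detected paralogs in each of 3 Nat10 cKO libraries (red) and 3 WT libraries (dark), with mean and SD as bars. Nlrp14 lies between 6089 and 9036 CPM in Nat10 cKO libraries, above all WT libraries, while Nlrp4a, Nlrp4e, Nlrp9a, Nlrp9b and Nlrp9c overlap between genotypes.

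Nat10 cKO replicate 3 was the lowest library of its group for 7 of the 8 detected paralogs, and WT replicate 2 the lowest of its group for 7 of 8. No such count over all tested genes is given here, so this is not read as particular to the paralogs. Without Nat10 cKO replicate 3, 5 paralogs were called higher: Nlrp14 and Nlrp4c, and also Nlrp4b, Nlrp9a and Nlrp9b with log2 changes of 0.33, 0.44 and 0.34 (limma adjusted p = 0.0141, 0.00369 and 0.00825). That fit called 6642 of 18552 tested genes, 3308 higher and 3334 lower. Without WT replicate 2, Nlrp9c was called lower (log2 change -0.26, limma adjusted p = 0.0271) beside the rises of Nlrp14 and Nlrp4c, where 6682 of 19567 tested genes were called, 3431 higher and 3251 lower. Which of the middle copies are called thus rests on single libraries, whereas Nlrp14 and Nlrp4c were called in each of the 6 fits that left out 1 library.

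In all, 8 of the 9 genes passed the filter on low counts, and 2 of these 8 were called, both higher. Of all 18353 tested genes, 35.0% were called, 17.4% higher and 17.6% lower, and with 8 genes the count of 2 is not read as more or less than that. The groups did not overlap for 3 of the 8 paralogs, against 48.3% of all tested genes. The median change of the 8 was 0.23 on the log2 scale, against 0.00 over all tested genes. The tests edgeR and DESeq2, run on the recovered reads, called the same 2 paralogs, where they called 33.8% and 35.5% of all genes.

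**Figure D2:**
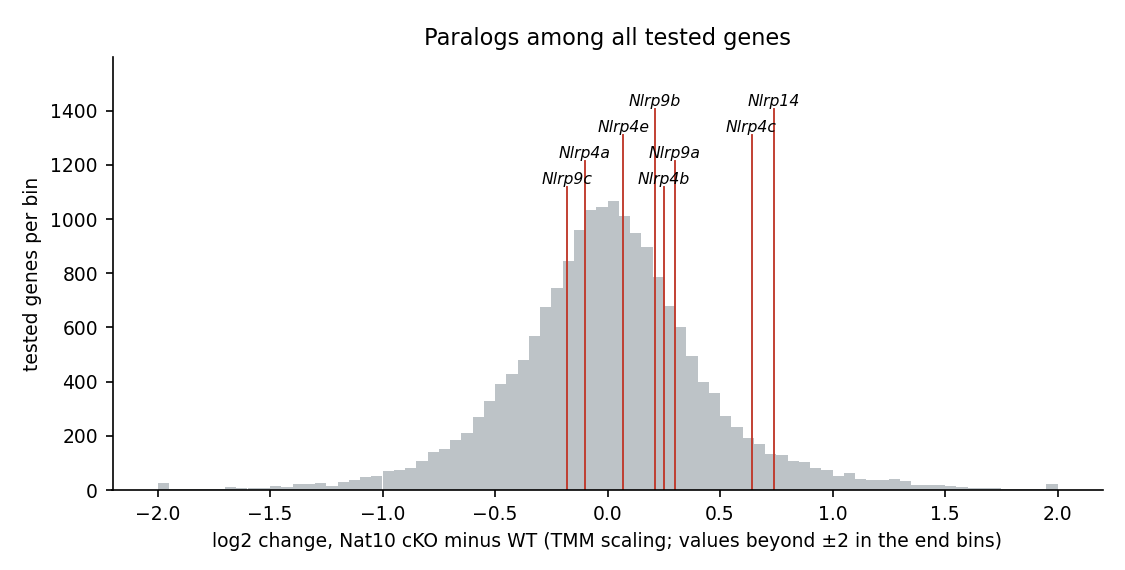
Distribution of log2 changes, Nat10 cKO minus WT, over all 18353 tested genes (grey; y axis, genes per bin) with the 8 detected paralogs as red lines. Nlrp4c at 0.64 and Nlrp14 at 0.74 stand to the right of the bulk, and the other 6 lie between -0.18 and 0.30.

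How libraries are set level against each other changes what is called. In the deposited values, 5 of 6 libraries carry a scaling factor from the authors, and the median change of all genes moved to 0.24. The same factors applied to each library's share of reads moved it to -0.15. Deposited values were not brought to a common total. Reads times factor totalled 68.2, 43.0 and 66.2 M in Nat10 cKO libraries, against 33.5, 47.1 and 61.9 M in WT libraries. Differences between deposited values, those of Nlrp14 included, therefore contain the differences between these totals. How far the totals reflect sequencing depth is not known, because the formula of the factors is not stated. Shares of reads leave out the number of reads per library. In deposited values, divided by 1 constant common to all libraries, Nlrp14 had 10880, 7319 and 7696 in Nat10 cKO libraries, against 2835, 3915 and 5549 in WT libraries, without overlap. Nlrp14 passed on both scales, with log2 changes of 1.10 (95% interval 0.36 to 1.85, limma adjusted p = 0.0477) and 0.53 (95% interval 0.24 to 0.81, limma adjusted p = 0.00319). Nlrp4c kept its direction but did not pass on either, with 0.99 (limma adjusted p = 0.114) and 0.43 (limma adjusted p = 0.210). Nlrp14 was the 1 paralog called as deposited, where 7.97% of all genes were called, and the 1 called with factors on shares of reads, where 22.1% were. The median of the 8 was 0.59 and 0.02 on these scales, above the all-gene medians of 0.24 and -0.15. The scales shift the genes of a library together, so this position is not separate support on each.

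**Figure D3:**
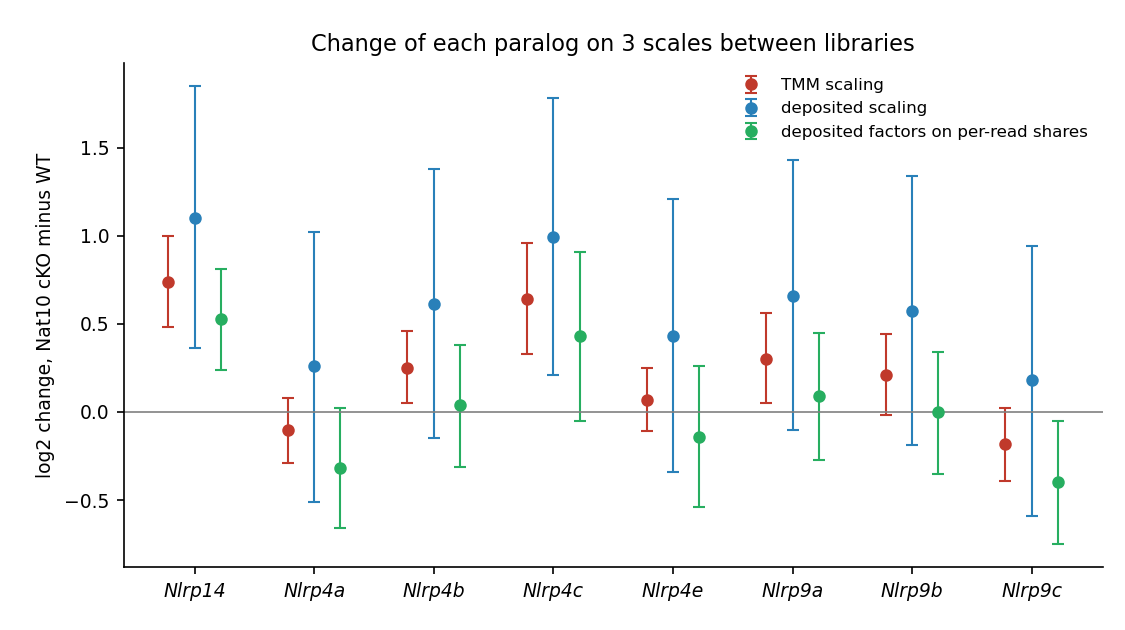
Log2 change, Nat10 cKO minus WT, of each detected paralog (points) with 95% limma intervals (bars) under TMM scaling (red), deposited scaling (blue) and deposited factors on per-read shares (green). The Nlrp14 intervals stay above 0 on all 3 scales, and the wide deposited intervals of the other paralogs, except Nlrp4c, span 0.

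Levels of different genes were compared per kilobase of exon, on the TMM scale. In Nat10 cKO libraries Nlrp14 averaged 2220 ± 440 CPM per kilobase, followed by Nlrp9b at 240 ± 36.7, Nlrp4b at 201 ± 17.7, Nlrp4a at 196 ± 7.03 and Nlrp9a at 188 ± 30.0. Nlrp9c at 129 ± 10.3, Nlrp4e at 63.1 ± 1.84 and Nlrp4c at 13.4 ± 2.93 came last (SD, n = 3). In WT libraries Nlrp14 averaged 1309 ± 74.6 CPM per kilobase, Nlrp4a 211 ± 18.1, Nlrp9b 205 ± 12.5, Nlrp4b 168 ± 15.3, Nlrp9a 152 ± 17.9, Nlrp9c 146 ± 14.5, Nlrp4e 59.9 ± 3.33 and Nlrp4c 8.40 ± 0.914. Nlrp14 stood far above the rest in both genotypes. In the middle of the order, the library values of each gene overlapped those of the next from Nlrp9b to Nlrp9a in Nat10 cKO, and from Nlrp4a to Nlrp9b and from Nlrp4b to Nlrp9c in WT. The place of Nlrp9c depends on the transcript taken, since transcripts with retained introns are part of its annotation.

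The makeup of the family, which does not move with the scaling of a library, was read as each gene's share of the summed reads per kilobase of the 8 detected paralogs. Nlrp14 made up 68.8%, 70.0% and 65.3% in Nat10 cKO libraries, against 56.7%, 58.8% and 58.2% in WT libraries. The groups did not overlap, and the means were 68.0% ± 2.43 in Nat10 cKO and 57.9% ± 1.09 in WT (SD, n = 3 each; exact permutation p = 0.1, the smallest that 20 assignments allow, two-sided; 0.114 adjusted over the 8 shares). Shares sum to a whole, so a larger Nlrp14 share makes the others smaller. The shares of Nlrp4a, Nlrp4b, Nlrp4e, Nlrp9a, Nlrp9b and Nlrp9c were lower in all Nat10 cKO libraries than in all WT libraries, for example 6.14% ± 0.978 in Nat10 cKO and 9.34% ± 0.257 in WT for Nlrp4a, and 4.01% ± 0.380 in Nat10 cKO and 6.47% ± 0.236 in WT for Nlrp9c. Nlrp4c kept pace with Nlrp14 more nearly, at 0.411% ± 0.0302 in Nat10 cKO and 0.374% ± 0.0627 in WT, with overlap.

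Without Nlrp14, the other 8 genes summed to 4645, 4689 and 3960 CPM in Nat10 cKO libraries, against 4427, 3769 and 4341 CPM in WT libraries. These sums overlapped. The Nlrp4 copies summed to 2119 ± 119 CPM in Nat10 cKO and 2017 ± 163 CPM in WT, and the Nlrp9 copies to 2313 ± 302 CPM in Nat10 cKO and 2162 ± 195 CPM in WT (SD, n = 3 each). All 9 genes took 1.24% ± 0.190 of all reads in Nat10 cKO and 0.870% ± 0.0391 in WT libraries. In bulk pools of 10 oocytes, a change in all oocytes and a change in some of them cannot be told apart.

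Balance between copies was read within the subgroups. Read ratios inside a library were formed for all 9 pairs of detected Nlrp4 or Nlrp9 copies, a measure added after the values were seen. Nlrp9a reads per Nlrp9c read were 0.872, 0.912 and 0.773 in Nat10 cKO libraries, against 0.618, 0.593 and 0.609 in WT libraries. The Nlrp9a to Nlrp9c ratio was thus higher in every Nat10 cKO library. Any bearing of the start windows printed above on this ratio was not tested. Nlrp9b reads per Nlrp9c read were 1.18, 1.25 and 1.07 in Nat10 cKO libraries, against 0.865, 0.925 and 0.857 in WT libraries. Nlrp4a reads per Nlrp4b read were 1.03, 1.01 and 1.13 in Nat10 cKO libraries, against 1.35, 1.36 and 1.35 in WT libraries. The Nlrp4a to Nlrp4b ratio was lower in each Nat10 cKO library, and the WT libraries hardly differed from each other. Nlrp4c reads per Nlrp4e read, the pair closest in coding sequence, were 0.246, 0.313 and 0.195 in Nat10 cKO libraries, against 0.138, 0.192 and 0.168 in WT libraries. The groups of this pair barely missed overlapping, with 0.195 in Nat10 cKO replicate 3 beside 0.192 in WT replicate 2. In all, 7 of 9 pairs did not overlap, against 56.8% of all pairs of tested genes with at least 10 CPM, so separation of a pair is common in these libraries. The 9 ratios reuse 7 genes and are not independent. The 7 pairs were each at the smallest possible exact permutation p of 0.1 (0.129 adjusted over the 9 pairs), while Nlrp4b with Nlrp4c and Nlrp4b with Nlrp4e overlapped (exact permutation p = 0.2 each). The design with 3 libraries per group cannot reach 0.05 in this test.

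**Figure D4:**
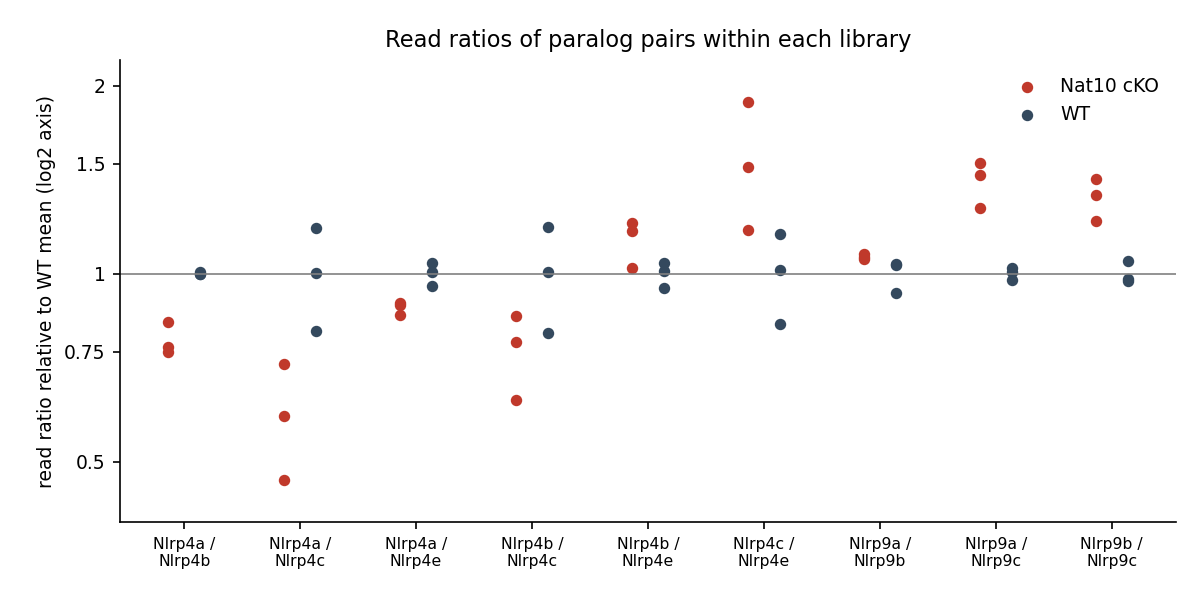
Reads of the first gene per read of the second, within each library, divided by the mean of the 3 WT libraries (y axis, log2 scale), for Nat10 cKO (red, left of each pair) and WT libraries (dark, right). The Nlrp9a to Nlrp9c ratio is 0.773 to 0.912 before division in Nat10 cKO and 0.593 to 0.618 in WT. Of the 9 pairs, 7 do not overlap between genotypes, against 56.8% of all pairs of tested genes with at least 10 CPM.

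Other genes of the NLR family were set beside the paralogs. Of 23 such genes, 15 passed the filter and were tested, and 1 rose and 2 fell. The rise was that of Nlrp5, which encodes a subunit of the subcortical maternal complex and lies 23.6 kb from Nlrp4e, with 2001 ± 135 CPM in Nat10 cKO and 1362 ± 116 CPM in WT (log2 change 0.56, limma adjusted p = 0.000491). The falls were those of Nod2, a bacterial sensor (4.85 ± 1.08 CPM in Nat10 cKO and 11.4 ± 0.988 CPM in WT), and Naip1, of the NAIP flagellin and secretion system receptors (44.9 ± 3.54 CPM in Nat10 cKO and 65.8 ± 4.50 CPM in WT). Nlrp4f, a close relative of the Nlrp4 copies on another chromosome, averaged 1713 CPM in Nat10 cKO and 1633 CPM in WT libraries (limma adjusted p = 0.601). Nlrp2 averaged 447 CPM in Nat10 cKO and 434 CPM in WT libraries (limma adjusted p = 0.783). In deposited values none of the 15 passed, and on shares of reads 0 rose and 3 fell.

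Of 12 inflammasome partners, 6 passed the filter, and 0 rose and 2 fell, as also on shares of reads, against 0 and 0 as deposited. Txnip, a thioredoxin-binding protein gene, had 929 ± 37.1 CPM in Nat10 cKO and 1124 ± 43.3 CPM in WT (log2 change -0.27, limma adjusted p = 0.0151), and Casp1, the protease that matures interleukin 1 beta, had 0.247 ± 0.0613 CPM in Nat10 cKO and 0.968 ± 0.328 CPM in WT (log2 change -0.65, limma adjusted p = 0.00302). Il1b, Aim2 and Mefv had no reads in any library, and the adaptor gene Pycard stayed at or below 0.736 CPM. Of 9 tested nucleic acid sensing genes, 3 rose and 2 fell, among them Irf3, an interferon transcription factor gene, with 28.1 ± 3.27 CPM in Nat10 cKO and 14.2 ± 2.01 CPM in WT (log2 change 0.93, limma adjusted p = 0.000281), and Mavs, the adaptor of RNA sensors, at 75.9 ± 17.1 CPM in Nat10 cKO and 42.5 ± 2.61 CPM in WT (log2 change 0.80, limma adjusted p = 0.000802). The falls were those of Cgas, the sensor of cytosolic DNA, with 71.8 ± 5.23 CPM in Nat10 cKO and 98.2 ± 8.37 CPM in WT (log2 change -0.44, limma adjusted p = 0.00388), and Ddx58, which encodes the RNA sensor RIG-I, with 29.4 ± 2.86 CPM in Nat10 cKO and 40.5 ± 4.44 CPM in WT (log2 change -0.45, limma adjusted p = 0.0105). As deposited 2 rose and 0 fell, and on shares of reads 1 rose and 2 fell. Of genes tied to NLRP14 in mice, Uhrf1, Dnmt1 and Kpna2 were tested and none passed, with log2 changes of 0.09, -0.04 and 0.25 (limma adjusted p = 0.536, 0.822 and 0.0881).

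Oocyte transcription factor genes were set beside the paralogs as the regulators best known in this cell. Of 7 tested, 5 rose and 0 fell, a median change of 0.53, among them Nobox with 1002 ± 137 CPM in Nat10 cKO and 607 ± 48.0 CPM in WT (log2 change 0.72, limma adjusted p = 0.000264) and Lhx8 with 361 ± 36.1 CPM in Nat10 cKO and 249 ± 20.4 CPM in WT (log2 change 0.53, limma adjusted p = 0.00119). As deposited 1 of the 7 rose and on shares of reads 2 rose. Of the 8 subcortical complex genes, 4 rose and 1 fell, with Padi6 at 0.70 and Ooep at -0.46 on the log2 scale, against 0 and 0 as deposited and 1 and 1 on shares of reads. These lists are read against the 17.4% and 17.6% of all genes called higher and lower.

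Among 8504 other tested genes with at least 10 CPM, those whose log2 levels ran most closely with Nlrp14 over the 6 libraries were Snx2, Lin7c and Gm48775, with Pearson r of 0.9991, 0.9984 and 0.9978. Their own log2 changes were 0.40, 0.21 and 0.60. For Nlrp4a they were Gphn, Mrpl47 and BC024063 (r of 0.9981, 0.9941 and 0.9921), and for Nlrp9b Aldh3a2, Ncoa4 and Rabif (0.9908, 0.9903 and 0.9899). All values come from the same 6 libraries, 3 per genotype, in which such values are common: 478 genes reached 0.95 with Nlrp14, 74 with Nlrp4a and 84 with Nlrp9b.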

How the data were processed

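Counts of reads per gene symbol were deposited by the authors for WT replicate 1, and the other 5 columns were deposited as a scaled signal. In those, whole reads carry 1 factor per library, 0.908 to 0.932 for Nat10 cKO libraries and 0.945 and 1.38 for WT replicates 3 and 2. Each factor equals 69 divided by a whole number from 50 to 76, and no source at hand states the formula. The deposited values are labelled ercc, a name of spike-in RNA. Whether the factors were computed from spike-in reads is not stated and was not tested. Divided by 1 read's worth, 100% of the nonzero values came out whole, with a tolerance of 0.001. The tools were featureCounts, STAR 2.7.10a and Trim Galore 0.6.7 with mm10, per the submitters' processing notes; annotation, strand and the handling of shared reads are not stated.

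The fit across all genes used limma 3.58.1 (trended, robust empirical Bayes) on log2(CPM + 1) of recovered reads with TMM factors, in R 4.3.3. The pseudocount of 1 understates changes of low genes. The filter on low counts was filterByExpr (minimum count 10), and p-values were adjusted by Benjamini-Hochberg over 18353 genes (threshold 0.05, two-sided). The recovered reads also allowed a count test, so edgeR 4.0.16 (quasi-likelihood) and DESeq2 1.42.0 (Wald) served as alternatives. Other alternatives were 4 scalings, a pseudocount of 0.1, no filter, a replicate block and leaving out each library. The fit was tested on simulated data.

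Gene positions and exon lengths came from GENCODE M21; 53292 of 55291 symbols matched. Shared stretches, coding identity (Biopython 1.88, global alignment) and start windows (local alignment) were computed from GENCODE and RefSeq sequences. The genes and lists were chosen with earlier results of these data known. Named beside the 9 genes were Nat10, up to 4 genes of smallest p in each list, the 3 genes most correlated with Nlrp14 and with the most abundant Nlrp4 and Nlrp9 copy per kilobase, and neighbours within 200 kb called at 2-fold with at least 10 CPM; any others were named after their values were seen. Labels give no batch. Replicate libraries of a group differed by far more than sampling noise.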

Additional observations from a re-analysis of the deposited data

How the results depend on the processing

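Nlrp14 was called higher in all 15 alternatives, with log2 changes of 0.53 to 1.10. Nlrp4c kept its direction in all 15 and was called in 13, all but both deposited scalings. Directions turned for 4 paralogs, none of them called on those scales: under deposited scaling Nlrp4a at 0.26 and Nlrp9c at 0.18, and with deposited factors on per-read shares Nlrp4e at -0.14 and Nlrp9b at -0.0047. The number of paralogs called was 4 with library sizes only (adding Nlrp4b and Nlrp9a), 3 with median-of-ratios factors (adding Nlrp4b), and 1 under deposited scaling and 1 on per-read shares; leaving out 1 library gave 2 to 5. All-gene calls, of 18353 tested, were 6372 (3405 higher, 2967 lower) with library sizes only and 6437 (3256 higher, 3181 lower) with median-of-ratios factors. They were 1462 (1207 higher, 255 lower) under deposited scaling and 4055 (1027 higher, 3028 lower) on per-read shares, against 6422 (3190 higher, 3232 lower) in the main fit. Without 1 library they were 4309 to 6682. These scalings differ by construction in the level to which libraries are set, and deposited scaling also keeps the differences between library totals. Shares within the family did not overlap for 7 paralogs with either length, and for 7 to 8 without 1 library. Shares sum to a whole, so these counts are not separate results for each paralog. Under TMM scaling the levels of 3 of the 8 did not overlap, against 48.3% of all tested genes. Deviations from the group means had r of 0.154, 0.011 and -0.275 between same-numbered libraries, and of -0.392 to 0.442 between differently numbered ones. With 3 libraries per group, these values cannot show whether the numbers pair samples. The replicate block gave 6234 calls and the same 2 paralogs. Depth does not limit the 8 detected genes; for Nlrp4d only reads above the limits given could have been seen.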

Other observations

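Of 129 other genes in the table within 200 kb of one of them, 29 were tested, and 7 rose and 5 fell under TMM scaling, where 35.0% of all tested genes were called (17.4% higher, 17.6% lower), so nothing particular to the surroundings is read from the count; 0 were called at 2-fold with at least 10 CPM. Most neighbours were low, with 8 of the 29 at 10 CPM or more. The following were named after their values were seen. Nearest to Nlrp14, the processed pseudogene Gm3765 (0.641 kb away) fell, with 1.02 ± 0.194 CPM in Nat10 cKO and 2.18 ± 0.321 CPM in WT (limma adjusted p = 0.00577). Farther from Nlrp14, the synaptotagmin gene Syt9 (173 kb away) rose, with 4.49 ± 0.633 CPM in Nat10 cKO and 2.30 ± 0.377 CPM in WT, while Rbmxl2 (11.3 kb away) fell, with 1.06 ± 0.280 CPM in Nat10 cKO and 1.92 ± 0.183 CPM in WT (SD, n = 3 each; limma adjusted p = 0.00376 and 0.0217). Gm45379, a transcript annotated inside an intron of Nlrp4b on its strand, fell, with 14.5 ± 2.61 CPM in Nat10 cKO and 24.0 ± 2.22 CPM in WT libraries (log2 change -0.70, limma adjusted p = 0.00249), where Nlrp4b itself had a log2 change of 0.25. Whether counting separated the reads of the pair was not tested.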
